A study of Mus musculus with 50 samples.

Results

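Knockdown of HP1γ was compared directly with knockdown of β-catenin in V6.5 mouse embryonic stem (ES) cells, and the genes that the knockdowns moved in opposite directions were described. The comparison rests on 4 of the 50 samples of the series, 2 RNA-seq libraries with a short hairpin against HP1γ (labelled shHP1r) and 2 with one against β-catenin (shBcat). All were grown in 2i, a medium that keeps ES cells naive by blocking the kinases MEK and GSK3. A further 6 libraries of V6.5 cells in 2i with a hairpin against GFP (shGFP) did not enter the contrast and served to say on which side of the control each knockdown lay. The estimate of the spread used all of these libraries and 2 with a hairpin against E2F6 (shE2F6) in the same cells. Whether replicates were separate cultures is not stated in the labels, so the spread behind each p-value may be technical. The hairpin sequences and the number of hairpins per gene are not given in the sources used here.

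Of 17043 genes with FPKM values (read fragments normalised to the length of a transcript and the size of a library), 14010 reached 1 FPKM in at least 2 of the 4 libraries and were tested. The direct comparison called 1345 of them (9.60%), 1005 higher with shHP1r than with shBcat (7.17%) and 340 lower (2.43%). The filter admitted more genes from one side: 729 genes tested were under 1 FPKM in both shBcat libraries and 110 in both shHP1r libraries. Of the 1005 genes, 482 were among the 729, so the higher and lower counts are not over genes admitted evenly. Opposite movement was then read from position. A gene called in the direct comparison counted if both libraries of one knockdown lay above all 6 shGFP libraries and both libraries of the other lay below all 6. By that rule 488 genes (3.48% of those tested) were above shGFP with shHP1r and below it with shBcat, and 100 (0.714%) were the other way round. The called genes outside these sets differed between the knockdowns without lying on opposite sides of every control library. Separate ranges in members of the sets follow from the rule. Called or not, 638 genes tested lay on opposite sides. Both knockdowns lay above all shGFP libraries in 503 genes and below all in 536. The shHP1r libraries lay wholly above the shBcat libraries in 32.9% of genes tested and wholly below in 32.8%.

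HP1γ, encoded by Cbx3, is a chromodomain protein that binds histone H3 methylated at lysine 9 and takes part in keeping heterochromatin and repeats silent. β-catenin, encoded by Ctnnb1, joins cadherins at the membrane and carries the canonical Wnt signal to Tcf and Lef factors in the nucleus, a pathway that the GSK3 inhibitor of 2i medium switches on. Cultures of mouse ES cells hold a few cells at a time in a state like the 2-cell embryo, marked by Zscan4 genes and by tandem gene families that other ES cells keep silent. In bulk libraries more cells in that state and more RNA per cell cannot be told apart.

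The 2 shBcat libraries were nearly alike, with a median absolute log2 difference of 0.0533 over the genes tested, while the 2 shHP1r libraries differed by 0.191. By that measure shHP1r replicate 2 lay nearer to shGFP replicates 1 and 2 (0.134 and 0.137) than to shHP1r replicate 1. Mitochondrial transcripts made up 9.75% to 10.3% of the values in the 4 libraries. That share was 6.23% to 8.92% in 4 shGFP libraries, but 20.4% and 19.3% in shGFP replicates 3 and 4 and 22.3% to 22.9% with shE2F6. The shGFP libraries fell into pairs, with median absolute differences of 0.0566 (replicates 1 and 2), 0.0652 (3 and 4) and 0.0501 (5 and 6). Between pairs the differences were 0.157 to 0.372, so these libraries may not be separate controls. Replicates 3 and 4 lay nearer to the shE2F6 libraries (0.150 to 0.160) than to the other shGFP libraries. Summed fibroblast or feeder markers (9 tested) came to 204 and 205 FPKM with shBcat, 199 and 208 with shHP1r and 165 to 233 with shGFP. Sequencing depth is unknown, since FPKM values do not keep it.

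The targeted genes followed the labels. Cbx3 (ENSMUSG00000029836, GRCm38.p6 chr6:51470154-51483704) stood at 6.6 and 7.25 FPKM with shHP1r, against 57.7 and 58.1 with shBcat and 56.7 to 71.2 with shGFP, a direct log2 difference of -2.89 (SE 0.15, adjusted p = 7.8e-07). Ctnnb1 (ENSMUSG00000006932, chr9:120933400-120960507) stood at 6.58 and 6.61 FPKM with shBcat, against 107 and 121 with shHP1r and 88.8 to 134 with shGFP, a direct log2 difference of 3.92 (SE 0.21, adjusted p = 1e-06). Each target stayed within its shGFP range in the other knockdown. The core factor genes Nanog and Pou5f1 did not pass the direct test (adjusted p = 0.49 and 0.98), with Pou5f1 at 226 and 231 FPKM with shBcat and 225 and 219 with shHP1r.

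**Figure D1:**
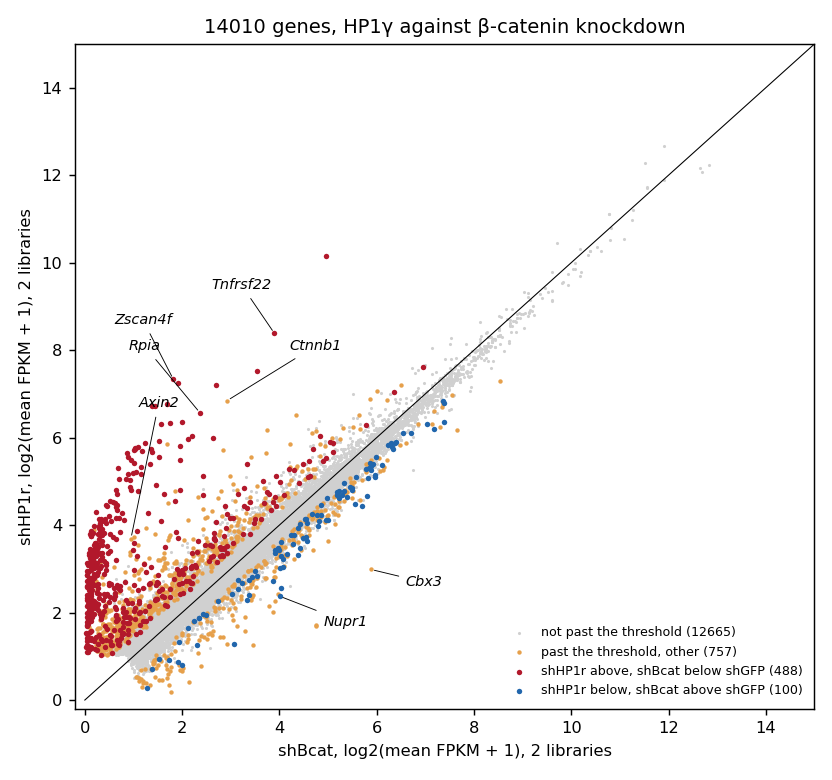
Each point is a gene tested, with its mean FPKM in the 2 shBcat libraries on the horizontal axis and in the 2 shHP1r libraries on the vertical axis, both log scaled, and colours marking the 488 and the 100 genes on opposite sides of shGFP. The first set spreads far above the diagonal and the second lies close below it.

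The genes that were high with shHP1r and low with shBcat were led by the Zscan4 family, which encodes zinc finger proteins of the 2-cell embryo known for their part in telomere upkeep. Zscan4f read 170 and 150 FPKM with shHP1r, 29.0 to 33.3 with shGFP, and 2.14 and 2.92 with shBcat. The group means differed 63.2-fold between the knockdowns (log2 difference 5.52, SE 0.18, adjusted p = 9.7e-08). On the log2(FPKM + 1) scale this was the largest difference of any gene tested, while the ratio of means was higher in other genes, such as Zscan4d (65.5-fold). Zscan4c read 160 and 141 FPKM with shHP1r against 2.98 and 2.56 with shBcat (log2 difference 5.33), and Zscan4d 116 and 94.8 against 1.63 and 1.59 (5.34). Zscan4b and Zscan4e had log2 differences of 5.26 and 5.06. In all 5 genes both shHP1r libraries lay above every shGFP library and both shBcat libraries below.

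The Zscan4 copies lie together on chromosome 7 and are nearly identical, so reads may be split between them and the value of a single member is uncertain. Stretches of their promoters show this likeness. The Zscan4c window was fixed. For each other copy shown, the window is the one within the 250 bases before the start that differs least from it. Likeness was thus selected for, and Zscan4e is not shown. The 70 bases below end 7 to 41 bases before the annotated start in RefSeq (GRCm38.p6) and are printed in the direction of transcription, with capitals where a base differs from Zscan4c.
Zscan4c (chr7:11005645-11005714, plus strand): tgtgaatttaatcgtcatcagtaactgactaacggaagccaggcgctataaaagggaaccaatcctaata
Zscan4f (chr7:11397838-11397907, plus strand): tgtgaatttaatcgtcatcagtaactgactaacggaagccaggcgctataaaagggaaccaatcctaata
Zscan4d (chr7:11166190-11166259, minus strand): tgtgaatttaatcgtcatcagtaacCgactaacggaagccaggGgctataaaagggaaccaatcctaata
Zscan4b (chr7:10905058-10905127, minus strand): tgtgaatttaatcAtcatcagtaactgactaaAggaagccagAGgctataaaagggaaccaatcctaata
Zscan4f matched Zscan4c at all 70 bases, Zscan4d at 68 and Zscan4b at 66.

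Other genes of the 2-cell state followed the same order. Of 37 tested 2-cell stage genes, 35 were higher with shHP1r than with shBcat, none was lower and 2 did not pass, with a median log2 difference of 3.66 beside -0.0089 for all genes tested. On opposite sides of shGFP lay 33 of the 37, beside 3.48% of all genes tested. The summed level of the list was 1651 and 1411 FPKM with shHP1r, 343 to 489 with shGFP, and 120 and 121 with shBcat. The list was known from earlier results of these data to differ in this direction, so its count is no independent support.

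Tcstv3 and Tcstv1, genes of the 2-cell embryo whose relatives lie in a tandem cluster, showed how low some members were with shBcat. Tcstv3 read 21.3 and 11.7 FPKM with shHP1r, 2.37 to 5.76 with shGFP, and 0.349 and 0.307 with shBcat (log2 difference 3.66). Tcstv1 read 13.6 and 7.81, 1.16 to 3.56, and 0.191 and 0.0841 in the same order (3.32). Usp17le, a member of a family of deubiquitinating enzymes, read 24.0 and 20.3 FPKM with shHP1r, 2.17 to 5.23 with shGFP, and 0.437 and 0.554 with shBcat (3.95). Its relatives Usp17lb and Usp17lc differed by 3.55 and 3.28. Pramef25, of the PRAME-like family, read 15.7 and 13.5 FPKM against 0.238 and 0.233 (3.65). In each of these genes the knockdown libraries lay on separate sides of all controls, and copies within these families may also share reads. Zfp352, a zinc finger gene used as a marker of the 2-cell state, read 6.36 and 3.07 FPKM with shHP1r, 0.552 to 1.02 with shGFP, and 0.0976 and 0.0344 with shBcat (2.36).

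The filter shaped this set. Of the 488 genes, 303 stayed under 1 FPKM in both shBcat libraries and were tested only because they were higher with shHP1r, and the same held for 21 of the 37 tested 2-cell genes. Genes at 0 in any library are also missing from the deposited table. The size of the set therefore describes what the filter let through and is not a count over all genes of the genome.

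**Figure D2:**
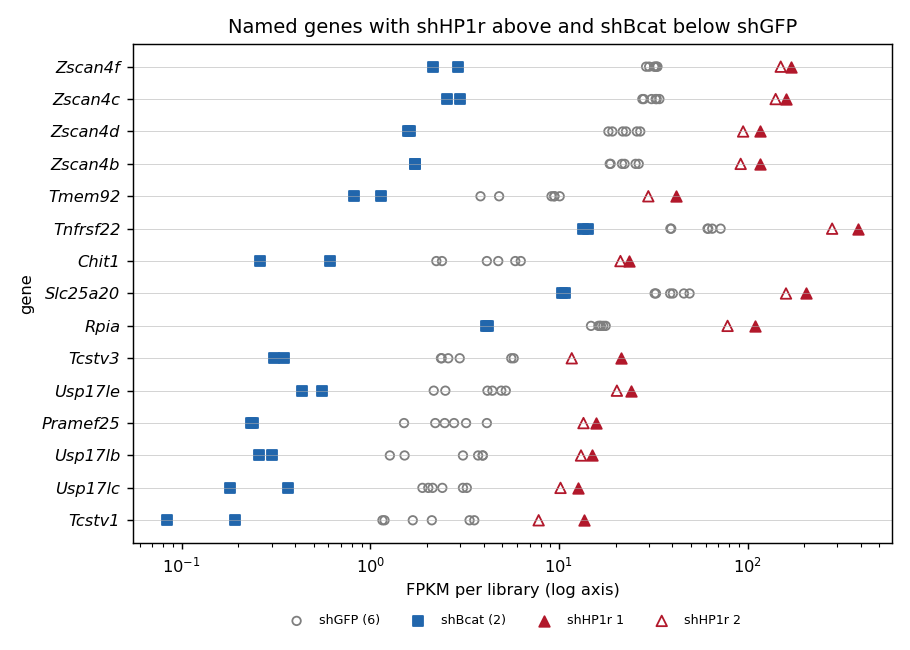
FPKM on a log scale of named genes that were above shGFP with shHP1r and below it with shBcat, with a point for each library. The rule that chose the set places both shBcat points below and both shHP1r points above all 6 shGFP points. The spacing is wide for the Zscan4 copies.

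Rpia, Slc25a20 and Tnfrsf22 also stood among the widest differences. Rpia, ribose-5-phosphate isomerase of the pentose phosphate pathway, read 109 and 78.4 FPKM with shHP1r, 14.8 to 17.7 with shGFP, and 4.21 and 4.12 with shBcat (log2 difference 4.18, SE 0.15, adjusted p = 9.7e-08). Slc25a20, the mitochondrial carnitine and acylcarnitine carrier, read 204 and 160, 32.2 to 49.3, and 10.8 and 10.4 FPKM (3.97, SE 0.21, adjusted p = 8.4e-07). Tnfrsf22, a decoy receptor for TRAIL in the imprinted region of distal chromosome 7, read 385 and 281, 39.0 to 72.0, and 14.3 and 13.5 FPKM (4.47, SE 0.29, adjusted p = 3.1e-06). None of the 3 ranges touched its neighbours. Arg2, the mitochondrial arginase, read 11.1 and 10.2 FPKM with shHP1r, 1.13 to 3.08 with shGFP, and 0.311 and 0.247 with shBcat (3.19). Of 12 tested pentose phosphate genes 2 were higher with shHP1r (16.7%, beside 7.17% of all genes tested) and 10 did not pass. Their median was 0.11, and the other called gene was the transketolase-like gene Tktl1 (0.82).

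Tmem92 and Dcdc2c encode a membrane protein and a doublecortin domain protein, and Chit1 encodes chitotriosidase, a chitin-degrading enzyme. Tmem92 read 41.8 and 29.8 FPKM with shHP1r, 3.84 to 10.1 with shGFP, and 1.14 and 0.824 with shBcat (log2 difference 4.2, SE 0.40, adjusted p = 4.7e-05). Chit1 read 23.5 and 21.2, 2.24 to 6.28, and 0.612 and 0.259 FPKM (4.03). Dcdc2c read 32.8 and 23.5, 1.91 to 6.16, and 1.12 and 0.672 FPKM (3.93). In all 3 the ranges of the knockdowns and of shGFP were separate.

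Meiotic genes formed a further group. Stra8, which retinoic acid induces at the entry to meiosis, read 27.9 and 30.4 FPKM with shHP1r, 7.14 to 20.4 with shGFP, and 1.73 and 1.76 with shBcat (log2 difference 3.46, SE 0.41, adjusted p = 0.00023). Dazl, an RNA-binding protein of germ cells, read 26.4 and 41.0, 10.7 to 18.7, and 4.40 and 4.38 FPKM (2.65, SE 0.27, adjusted p = 7e-05). Both genes were also above shGFP with shE2F6, at 24.9 and 27.0 FPKM for Stra8 and 49.4 and 45.7 for Dazl. Syce1, of the synaptonemal complex, and Mov10l1, a helicase of the piRNA pathway, differed by 1.56 and 0.88.

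Of 43 tested germline and meiosis genes, 18 were higher with shHP1r than with shBcat, 1 was lower and 24 did not pass (median log2 difference 0.65). These were 41.9% higher and 2.33% lower, beside 7.17% and 2.43% of all genes tested. The lower one was the recombinase gene Dmc1, at 5.68 and 6.25 FPKM with shHP1r and 10.9 and 10.2 with shBcat (-0.73). Only 6 of the 43, Dazl, Stra8, Syce1, Mov10l1, Tdrd1 and Ddx4, lay on opposite sides of shGFP, beside 3.48% of all genes tested. The number higher was 5 without either shBcat library or without shHP1r replicate 1, and 14 without shHP1r replicate 2. When pairs of libraries were averaged limma called 0, with 14 higher at an unadjusted p under 0.05.

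Several transcription and chromatin factors were also high with shHP1r and low with shBcat. Snai1, a repressor of epithelial genes, read 5.57 and 2.79 FPKM with shHP1r, 1.6 to 2.47 with shGFP, and 0.439 and 0.652 with shBcat (log2 difference 1.69). Zfp809, which recruits silencing to proviral DNA, read 25.1 and 27.2, 13.7 to 18.6, and 12.0 and 12.8 FPKM (1.02, adjusted p = 0.0011). H3f3b, which encodes the histone variant H3.3, read 199 and 192, 162 to 190, and 121 and 126 FPKM (0.66, adjusted p = 0.011). The deacetylase gene Sirt1 and the demethylase gene Kdm1b differed by 0.66 and 0.81. H3f3b, Sirt1, Kdm1b, Arg2 and Zfp352 were picked after their values were seen.

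Innate immune genes gave a mixed count. Oasl2, an interferon-induced gene, read 1.64 and 1.79 FPKM with shHP1r, 0.373 to 0.648 with shGFP, and 0.172 in each shBcat library (log2 difference 1.21). Of 14 tested interferon response genes 4 were higher with shHP1r (Oasl2, Ifi27, Gbp2 and Ifi35), none was lower and 10 did not pass, with a median of 0.59. The count was 2 without either shBcat library. Among 20 p53 target genes 3 were higher (Pmaip1, Ccng1 and Sesn1), none was lower and 17 did not pass, with a median of 0.03. Over all genes tested the shares were 7.17% higher and 2.43% lower. Ccng1, a cyclin induced by p53, read 142 and 119 FPKM with shHP1r against 80.9 and 80.0 with shBcat (0.69). The p53 count was 1 without shBcat replicate 1, shBcat replicate 2 or shHP1r replicate 1.

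Over the 488 genes the median direct log2 difference was 1.84, and over the 185 that reached 1 FPKM in at least 1 library of each knockdown it was 1.02. Against the shGFP mean, the median shift was 1.27 with shHP1r and -0.57 with shBcat, and 125 genes moved by at least 1 on the log2(FPKM + 1) scale on both sides. Against shGFP by limma, 3.65% of the genes tested were higher and 5.25% lower with shBcat, and 6.07% higher and 1.74% lower with shHP1r. Both shifts were called, each in its own direction, in 219 of the 488 and in 12 of the 100 genes of the opposite set. The shifts share their controls. The shift with shHP1r was 1.45 in replicate 1 and 1.08 in replicate 2, and replicate 1 was the higher in 401 of the 488. The shBcat medians were -0.57 and -0.58. With shE2F6 the same genes had medians of -0.33 and -0.26, libraries that carried the high mitochondrial share given above. The part of that share in these values was not tested.

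Most of the genes were weakly expressed in the controls, with a median shGFP level of 1.79 FPKM against 7.02 for all genes tested, and 136 had a shGFP mean under 1. Predicted genes and clone names made up 53.1% of the 488, compared with 25.2% of all genes tested. The highest level belonged to one of them, the clone RP23-287A8.1, at 1330 and 941 FPKM with shHP1r, 146 to 194 with shGFP, and 29.9 and 30.6 with shBcat. It was picked after its values were seen.

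Position in the genome was not used to choose the genes. Of 488 genes, 356 had distinct RefSeq positions (GRCm38.p6), and 113 of these (31.7%) had another member of the set within 100 kb. Among all 12533 located genes tested, 675 (5.39%) had a member of the set that near. Runs of at least 4 members with gaps under 500 kb numbered 14 and held 102 genes. The longest, at chr12:87514316-88329682, held 18 members, among them Gm8300. The Zscan4 run at chr7:10900740-11402318 held 5, the Tcstv run at chr13:119893387-120318261 held 8, and a run with Usp17le, Usp17lb, Usp17la and Trim12a lay at chr7:104299893-104862667. A run of 7 at chr11:94755129-94887125 included Tmem92, and another of 7 at chr3:93796398-94332540 included Tdpoz3. Neighbours in such runs are often copies, so they are not independent of each other.

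The 100 genes that were low with shHP1r and high with shBcat moved less. Their median direct log2 difference was -0.60, with a median shift from the shGFP mean of -0.33 with shHP1r and 0.27 with shBcat. Of the 100, 16 differed at least 2-fold between the knockdowns, and 95 were protein coding. They were well expressed, with a median shGFP level of 19.8 FPKM, and 94 reached 1 FPKM in at least 1 library of each knockdown. No RefSeq neighbour within 100 kb was another member for the 97 located genes, compared with 353 of 12533 genes (2.82%) that had a member that near.

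Chac1 and Nupr1, of the integrated stress response, had the widest differences in this set. In that response, stress kinases that phosphorylate eIF2α raise translation of the factor ATF4, which then activates genes for amino acid uptake, synthesis and tRNA charging. Chac1, which degrades glutathione, read 1.40 and 1.43 FPKM with shHP1r, 1.72 to 2.99 with shGFP, and 7.68 and 6.99 with shBcat (log2 difference -1.79, SE 0.20, adjusted p = 0.00017). Nupr1, a stress-induced nuclear protein, read 5.4 and 2.97, 6.69 to 8.83, and 15.0 and 15.1 FPKM (-1.67, SE 0.23, adjusted p = 0.0009). Psat1, of serine synthesis, read 40.8 and 40.6, 46.4 to 53.5, and 69.6 and 66.6 FPKM (-0.73, adjusted p = 0.0012). In these 3 genes the 3 ranges were separate, with the wider gap to the controls on the shBcat side.

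Of 30 tested stress and ATF4 genes, none was higher with shHP1r than with shBcat, 13 were lower and 17 did not pass, with a median log2 difference of -0.58. The share lower was 43.3%, beside 2.43% lower and 7.17% higher among all genes tested. Chac1, Nupr1 and Psat1 lay on opposite sides of shGFP, as did 0.714% of all genes tested in that direction. Ddit3, which encodes the stress factor CHOP, differed mainly by its level with shBcat, at 8.69 and 8.87 FPKM against 2.62 to 4.08 with shGFP and 2.62 and 2.85 with shHP1r (-1.39). The alanine transaminase gene Gpt2 read 24.9 and 25.0 FPKM with shBcat, 9.42 to 15.7 with shGFP, and 10.4 and 9.11 with shHP1r (-1.27). Slc7a1, a transporter of arginine and lysine, was instead within the shGFP range with shBcat (11.9 and 12.2 against 11.5 to 13.6 FPKM) and at 4.78 and 7.00 with shHP1r (-0.94). Atf4 itself was at the threshold, with 140 and 146 FPKM with shBcat and 116 and 78.7 with shHP1r (-0.58, adjusted p = 0.049).

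The members on opposite sides were 9 without shHP1r replicate 1, 6 with median-of-ratios scaling and 9 without the shE2F6 libraries and shGFP replicates 3 and 4. The number lower was 6 and 5 without shBcat replicates 1 and 2, 11 without shHP1r replicate 1 and 7 without shHP1r replicate 2. When pairs of libraries were averaged limma called 0 of the 30, with 6 lower at an unadjusted p under 0.05.

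The aminoacyl-tRNA synthetases, which charge tRNAs with their amino acids, were counted after their values were seen. Of 20 tested cytosolic enzymes 9 were lower with shHP1r than with shBcat and none was higher (median log2 difference -0.39). Their share lower was 45%, beside 2.43% lower and 7.17% higher among all genes tested. Sars, Nars, Gars, Tars and Aars lay on opposite sides of shGFP. Sars, the seryl-tRNA synthetase, read 21.8 and 20.6 FPKM with shHP1r, 27.4 to 33.4 with shGFP, and 46.6 and 46.0 with shBcat (-1.09, SE 0.12, adjusted p = 0.00014). Gars, the glycyl-tRNA synthetase, read 116 and 112, 118 to 136, and 165 and 162 FPKM (-0.52). The mitochondrial enzymes, 17 tested, had a median of -0.08. The cytosolic count was 3 without either shBcat library, 5 without shHP1r replicate 1 and 6 without shHP1r replicate 2, and after averaging pairs limma called 0, with 1 lower at an unadjusted p under 0.05.

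The letters TGATGNAA, the core of the composite element that ATF4 binds with C/EBP factors, were searched on both strands in the 250 bases before each RefSeq start. They occurred in 7 of the 78 promoters found for the 100 genes (8.97%), those of Chac1, Nupr1, Aars, Gars, Tars, Gtpbp4 and Cd59b. The share was 2.38% of the 8712 promoters of genes tested and 3.91% of all 27025 RefSeq promoters. In the opposite set, high with shHP1r, it was 19 of 239 (7.95%), or 9 of 188 (4.79%) outside the runs of neighbouring copies. For 5 genes of stress and tRNA charging the 70 bases that hold the match are printed in the direction of transcription (GRCm38.p6), with the match in capitals.
Chac1 (chr2:119351018-119351087, plus strand): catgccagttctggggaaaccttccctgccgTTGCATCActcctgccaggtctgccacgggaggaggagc
Nupr1 (chr7:126625542-126625611, minus strand): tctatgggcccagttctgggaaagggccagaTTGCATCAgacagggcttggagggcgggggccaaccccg
Aars (chr8:111033699-111033768, plus strand): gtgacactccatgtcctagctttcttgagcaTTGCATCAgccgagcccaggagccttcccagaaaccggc
Tars (chr15:11399659-11399728, minus strand): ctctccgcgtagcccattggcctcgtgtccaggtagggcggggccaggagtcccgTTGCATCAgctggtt
Gars (chr6:55037931-55038000, plus strand): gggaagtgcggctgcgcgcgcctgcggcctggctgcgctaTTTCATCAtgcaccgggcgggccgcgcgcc
In all 5 the match reads as the reverse complement of the searched letters, and in 4 it is the same TTGCATCA. A match describes these letters and is not a measured binding site. Also searched were CTTTGA, the core that Tcf and Lef factors bind, found in 13.8% of the set high with shHP1r and 11.5% of the set high with shBcat beside 12.2% of genes tested. The E2F letters GGCGGGAA were in 4.18% and 1.28% beside 4.30%, and the E-box CACGTG in 6.69% and 8.97% beside 10.3%.

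**Figure D3:**
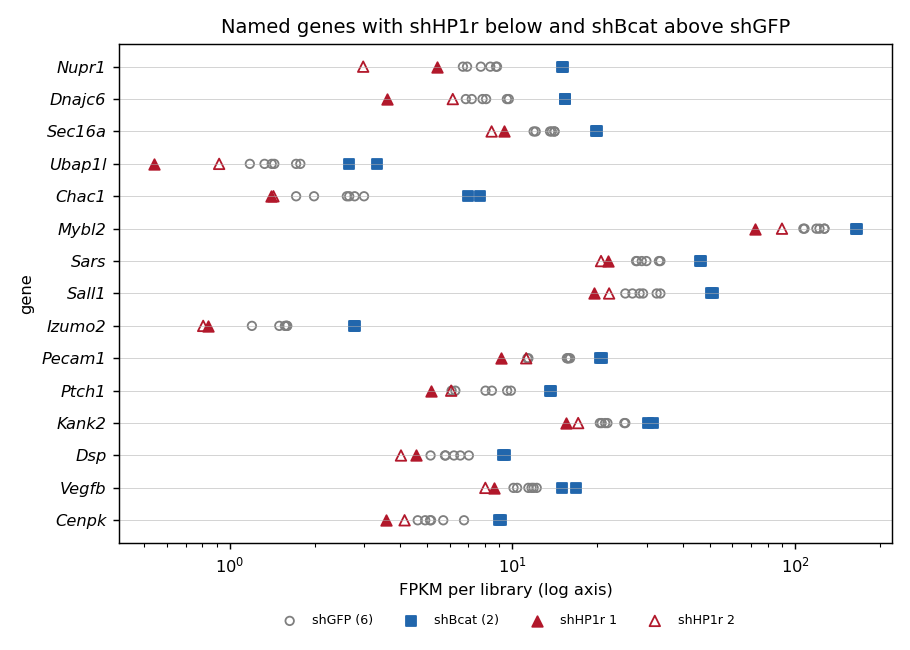
FPKM on a log scale of named genes that were below shGFP with shHP1r and above it with shBcat, with a point for each library. The steps are smaller than in the opposite set, and those of Chac1 and Nupr1 are wide for this set.

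Other members of the set have known roles in proliferation, chromatin or cell contact. Mybl2, which drives genes of G2 and mitosis, read 72.0 and 89.9 FPKM with shHP1r, 107 to 127 with shGFP, and 164 and 166 with shBcat (log2 difference -1.03, SE 0.14, adjusted p = 0.00072). The replication genes Rrm1 and Pole differed by -0.50 and -0.47, although of 33 tested E2F cell cycle and replication genes they were the only 2 lower, 1 was higher (Pola1) and 30 did not pass. Both lost their call with median-of-ratios scaling, without either shBcat library and without shHP1r replicate 1. Ehmt1, an H3K9 methyltransferase also called GLP, read 5.86 and 6.29, 7.52 to 8.57, and 9.81 and 9.94 FPKM (-0.62, adjusted p = 0.0018). Of 27 tested HP1 and H3K9 methylation genes 3 were lower (Cbx3, the target itself, Ehmt1 and Chaf1b), 1 was higher (Zfp809) and 23 did not pass. Among all genes tested 2.43% were lower and 7.17% higher. Mga, of the PRC1.6 complex, and Tet1, which oxidises methylated cytosine, differed by -0.61 and -0.76, and both lost their call with median-of-ratios scaling and without either shBcat library.

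Sall1, a zinc finger factor of the pluripotency network, read 19.5 and 22 FPKM with shHP1r, 25.1 to 33.4 with shGFP, and 50.5 and 51.2 with shBcat (-1.26, SE 0.18, adjusted p = 0.0012). Pecam1, an adhesion molecule of naive ES cells, read 9.10 and 11.2, 11.3 to 16.0, and 20.5 and 20.7 FPKM (-0.96), with shHP1r replicate 2 just below the lowest shGFP library. The desmosome gene Dsp and the Hedgehog receptor gene Ptch1 differed by -0.96 and -1.15. Sec16a, which organises exit sites of the endoplasmic reticulum, read 9.35 and 8.45, 11.9 to 14.1, and 20.0 and 19.8 FPKM (-1.08, SE 0.12, adjusted p = 0.00012). Hmgcs1, of cholesterol synthesis, read 63.6 and 80.6, 98.5 to 140, and 145 and 143 FPKM (-1.0). Among the genes tested as a whole 2.43% were lower and 7.17% higher. Of 23 cholesterol synthesis genes 3 were lower (Hmgcs1, Sqle and Idi1), 1 was higher (Ebp) and 19 did not pass. All 4 lost their call without shBcat replicate 1, shBcat replicate 2 or shHP1r replicate 1.

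Some of the largest direct differences came from 1 knockdown alone. Axin2, a feedback gene of canonical Wnt signalling, read 0.945 and 0.911 FPKM with shBcat and 12.9 and 10.9 with shHP1r, 1 library within and 1 below the shGFP range of 12.0 to 13 (log2 difference 2.74). Cdx1, a caudal homeobox gene, read 0.102 and 0.112 FPKM with shBcat and 7.88 and 9.59 with shHP1r, beside 8.11 to 27.8 with shGFP (3.13). Plagl1, an imprinted zinc finger gene, read 2.72 and 2.46 against 25.5 and 27.7 FPKM, beside 17.9 to 28.1 with shGFP (2.94). Of 13 tested Wnt target and feedback genes 5 were higher with shHP1r, none was lower and 8 did not pass. None of the 5 lay on opposite sides of shGFP. The share higher was 38.5%, beside 7.17% higher and 2.43% lower among all genes tested. In Wnt8a the shHP1r libraries read 26.3 and 1.43 FPKM, with a log2 difference of 2.84 (adjusted p = 0.044), or 1.09 without replicate 1. Its call held without either shHP1r library but was lost without any 1 of the shGFP, shBcat or shE2F6 libraries.

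In the other direction, Otx2, a homeobox factor of anterior epiblast and forebrain, read 6.46 and 6.75 FPKM with shBcat and 1.38 and 1.48 with shHP1r, within the shGFP range of 0.899 to 1.69 (-1.65, adjusted p = 0.00019). Lmx1b, a LIM homeobox gene, read 8.67 and 8.83 FPKM with shBcat, 2.16 and 1.79 with shHP1r and 1.01 to 1.40 with shGFP (-1.72), so that both knockdowns lay above the controls. Hesx1, an anterior homeobox gene, read 10.8 and 9.13 against 0.703 and 2.05 FPKM (-2.26). Lmx1a, a close relative of Lmx1b, went the opposite way, at 0.105 and 0.0923 FPKM with shBcat, 0.265 to 0.480 with shGFP, and 2.97 and 2.03 with shHP1r (1.66). Of 11 tested neuroectoderm genes 2 were higher with shHP1r (Lmx1a and Ptprz1), 3 were lower (Lmx1b, Hesx1 and Sox1) and 6 did not pass. These were 18.2% higher and 27.3% lower, beside 7.17% and 2.43% of all genes tested.

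Most pluripotency genes did not pass the direct test. The shares over all genes tested were 7.17% higher with shHP1r and 2.43% lower. Of 28 naive pluripotency genes 1 was higher with shHP1r (Tet2), 3 were lower (Lifr, Pecam1 and Tcl1) and 24 did not pass, with a median log2 difference of 0.02. Of 14 core pluripotency genes 2 were higher (Dppa2 and Lefty2), 1 was lower (Sall1) and 11 did not pass. Of 5 tested primitive streak and mesoderm genes 4 were higher with shHP1r (Cdx1, Nkx1-2, Snai1 and Mesp2). The 5 together summed to 1.995 and 2.143 FPKM with shBcat, so most could pass the filter only through shHP1r. Their count higher therefore follows largely from the filter. Endoderm genes had 2 higher of 10 (Dab2 and Foxa1, which both lost their call without either shBcat library or without shHP1r replicate 1), and of 12 trophoblast genes limma called 0, with 4 higher and 2 lower at an unadjusted p under 0.05. Of 16 reference genes limma called 0, with 2 higher at an unadjusted p under 0.05.

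The other lists had few calls, to be read beside the 7.17% higher and 2.43% lower among all genes tested. Of 26 imprinted genes 4 were higher (Tnfrsf22, Plagl1, Magel2 and Sgce) and 2 lower (Impact and Zdbf2), with 2 higher without either shBcat library or shHP1r replicate 1. Of 12 ERK feedback genes Etv4, Etv5 and Spry2 were higher, and of 18 Nodal and BMP pathway genes Lefty2, Msx2 and Id3. All 6 lost their call without shBcat replicate 1 or shHP1r replicate 1. Of 22 formative and primed genes Etv4, Etv5 and Sox3 were higher and Otx2 and Fgf15 lower, and of 14 DNA methylation genes Mbd1 and Tet2 were higher and Tet1 lower. Of 25 catenin, cadherin and junction genes Ctnnb1, the target, was higher and Dsp and Cdh3 lower, and of 17 Tcf, Lef and destruction complex genes Gsk3b was higher. Of 15 PRC1.6 genes Cbx3 and Mga were lower, of 23 glycolysis genes Ldhb was lower, and of 9 fibroblast or feeder markers Thy1 and Fbn1 were higher and Tagln lower. Of 13 mitochondrial transcripts limma called 0, with 1 lower at an unadjusted p under 0.05.

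**Figure D4:**
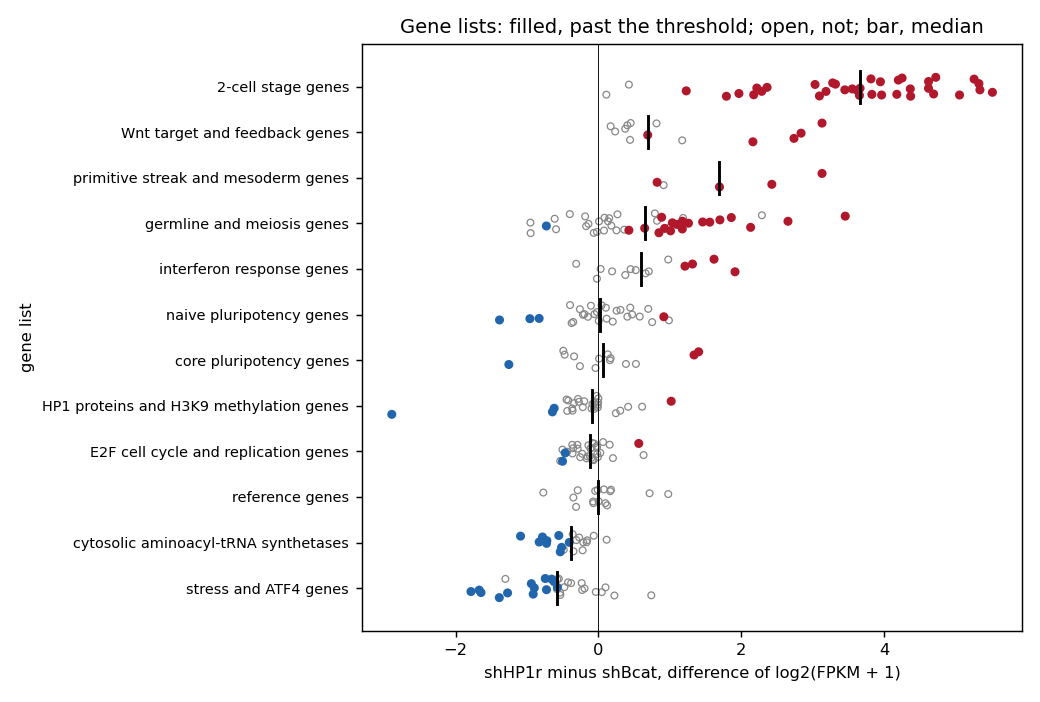
Direct log2 difference, shHP1r minus shBcat, of every tested member of 12 gene lists, with filled points past the threshold, open points not past it, and a bar at each median. The 2-cell list lies far to the right (median 3.66) and the stress and ATF4 list to the left (-0.58), while the naive list is centred near 0 (0.02).

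The same genes were then read in 3 sets of libraries that played no part in choosing them, all given in TPM, the share of a transcript scaled to a fixed total per library. In a line labelled QKO, an abbreviation the labels do not spell out, 3 libraries with shBcat were compared with 3 with shGFP in 2i at 48 h. Of the 15562 genes tested there, 0.585% were higher and 1.56% lower with shBcat, and Ctnnb1 stood at 48.4, 62.4 and 82.4 TPM against 528, 490 and 497. Of the genes that both tables tested, 0.612% were higher and 1.37% lower. Of the 488 genes, 345 were tested, and 6 were higher (1.74%) and 8 lower (2.32%), with a median log2 difference of -0.02 beside -0.04 for all genes tested in both. The 8 were Irgm1, Oasl2, Pdpn, Dtx3l, Herpud2, Hist1h4i, Rnf11 and Ccng1, with log2 differences of -2.72 for the interferon-inducible GTPase gene Irgm1, -1.67 for Oasl2 and -0.35 for Ccng1. The 6 were the zinc finger gene Zfp640 and 5 predicted genes, Gm13228, Gm21312, Gm20765, Gm10324 and Gm2035. With 1 QKO library left out at a time limma called from 0 to 14 higher and from 0 to 12 lower, and with no filter 0 and 1. Of the 98 tested genes of the other set 1 was higher (1.02%), the calmodulin gene Calm3.

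Zscan4f, at 2.14 and 2.92 FPKM against 29.0 to 33.3 in V6.5 cells with shBcat and shGFP, read 135, 128 and 122 TPM with shBcat in QKO cells and 121, 98.9 and 121 with shGFP. For Nupr1 the QKO values were 32.4, 33.6 and 34.1 TPM with shBcat and 75.8, 118 and 61.5 with shGFP (log2 difference -1.27, adjusted p = 0.051), the reverse of the order in V6.5 cells. The 30 tested stress and ATF4 genes had a median of -0.13 in QKO cells. The tables were normalized separately, so no level was compared across them, and the difference between the lines was not tested.

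In epiblast-like cells (epiLC), a culture that resembles the early epiblast after implantation, 2 libraries with shBcat at 96 h were compared with 2 whose labels name no hairpin, so that carrying a hairpin and losing β-catenin cannot be told apart. Of the 15304 genes tested, 2.29% were higher and 2.54% lower with shBcat. Of the 30 stress and ATF4 genes 18 were higher, none was lower and 12 did not pass (median 0.31). Chac1 rose from 9.04 and 12.4 to 23.3 and 24.9 TPM (log2 difference 1.11, adjusted p = 0.0029), and Nupr1 from 32.7 and 31.5 to 78.3 and 70.6 (1.19, adjusted p = 8.1e-05). Ddit3 rose from 7.51 and 7.22 to 16.9 and 15.6 TPM (1.04, adjusted p = 0.0013). The stress list's count was 9 and 12 without control replicates 1 and 2, 13 and 11 without shBcat replicates 1 and 2, and 10 with no filter. Other lists also moved at 96 h, so such a shift was not particular to the stress list. With shBcat 17 of 23 glycolysis genes, 12 of 23 cholesterol synthesis genes and 11 of 24 junction genes were lower. Of 20 p53 target genes 6 were higher.

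Of the 100 genes high with shBcat in V6.5 cells, 99 were tested at 96 h, and 14 were higher with shBcat (14.1%) and the desmosome gene Dsp was the 1 lower (1.01%), beside 2.41% and 2.57% of all genes tested in both tables. Among the 14 were Chac1, Nupr1, Psat1, Mybl2 and Impact, and the count was 4, 4, 7 and 4 with 1 library left out at a time and 3 with no filter. Of the 488 genes 374 were tested, with 16 higher (4.28%) and 8 lower (2.14%). Those counts were 4 to 9 and 3 to 7 with 1 library left out at a time, and 4 and 4 with no filter. Of 34 tested 2-cell genes 4 were higher with shBcat (Zscan4c, Zscan4e, Gm2016 and Gm8300) and 30 did not pass, and 2 at most were higher with 1 library left out. Zscan4f did not pass, at 205 and 211 TPM with shBcat and 189 and 167 in the libraries whose labels name no hairpin.

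When V6.5 cells whose labels name no hairpin left 2i for 48 h of epiLC, 45.1% of 16559 genes were higher and 30.8% lower (2 libraries each). Of the 488 genes 334 were tested, with 85 higher (25.4%) and 190 lower (56.9%), and a median log2 difference of -0.48, beside 45.2%, 32.4% and 0.09 for all genes tested in both tables. The number lower was 174 to 188 with 1 library left out at a time. Zscan4f fell from 66.9 and 58.5 to 26.5 and 22.6 TPM, and of 35 tested 2-cell genes 27 were lower, 1 was higher (Zfp750) and 7 did not pass. Of 99 tested genes of the other set 50 were higher (50.5%) and 32 lower (32.3%), shares like those of all genes.

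**Figure D5:**
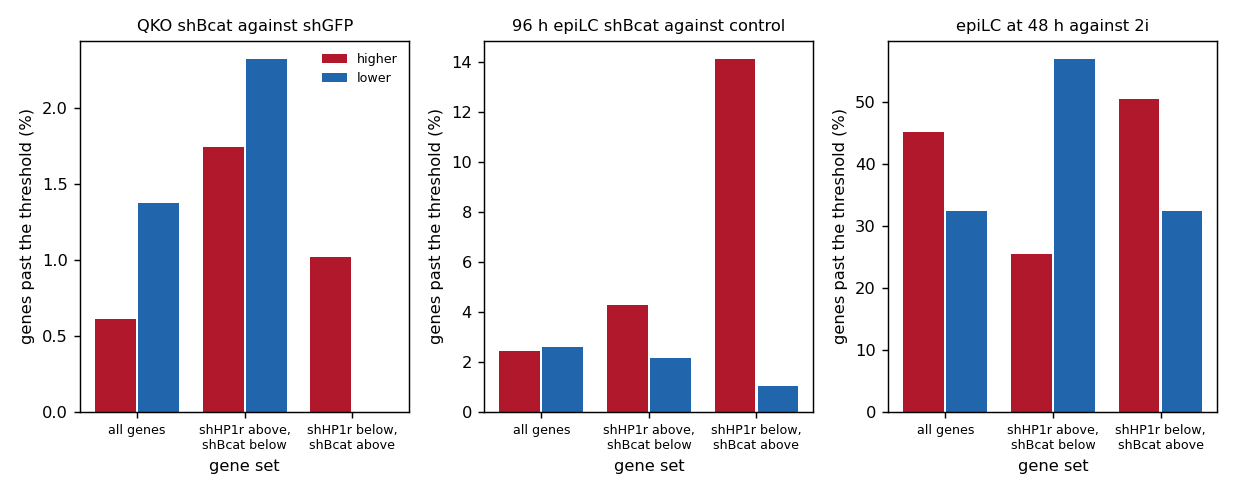
Percent of genes called higher and lower in 3 other comparisons, for all genes tested in both tables and for the 2 sets of genes on opposite sides of shGFP in V6.5 cells. The set high with shHP1r stands out at 48 h of epiLC, where 56.9% were lower against 32.4% of all genes, and the set high with shBcat at 96 h, where 14.1% were higher against 2.41%.

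The counts of the direct comparison depended on single libraries. Without shBcat replicates 1 and 2 the genes higher with shHP1r were 529 and 508 and those lower 83 and 80, and without shHP1r replicate 1 they were 654 and 222. The set high with shHP1r held 401 to 665 genes as each of the 4 libraries was left out, and the set high with shBcat 29 and 31 without either shBcat library, 114 without shHP1r replicate 1 and 196 without shHP1r replicate 2. Of the 37 tested 2-cell genes 33 to 35 were higher in each of these settings and 24 with libraries averaged in pairs. Averaging pairs ended the call of 91 genes named by rule, with Stra8, Dazl, Tmem92, Chac1, Nupr1, Sars, Sall1, Mybl2 and Otx2 among them, but not of Cbx3, Ctnnb1, Axin2, Zscan4f, Rpia, Slc25a20, Tnfrsf22 or Usp17le. Leaving out 1 of the 4 libraries ended the call of Pecam1, Ptch1, Hmgcs1, Mga, Tet1, Rrm1, Pole and Ccng1 in at least 1 case. Just inside the filter was Ceacam2, whose second highest value in the 4 libraries was 1.02 FPKM, and just outside was Fbxo47, at 0.995. Outside the filter 118 more genes lay on opposite sides of shGFP.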

How the data were processed

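RNA-seq libraries of mouse ES cells and epiLC were used, 32 of the 50 samples, without the 18 samples of chromatin immunoprecipitation, not analysed here. TRIzol RNA was cleared of DNA with DNase, per the labels' protocols. The authors deposited FPKM values for the 12 V6.5 hairpin libraries, for which TopHat2 2.0.13, Bowtie2, Cufflinks 2.2.1 and bcl2fastq 2.18 are named with mm10, per the submitters' processing notes. The authors deposited TPM values in 3 other tables, made with bcl2fastq 2.18, STAR, RSEM and Bowtie2 on mm10, per the same notes. Whether counting used strand is not given in the sources used here. The FPKM table listed no gene at 0, so a gene with 0 in 1 library is absent. It also held 1 column of unknown unit that was not used. Depth is unknown for every library, so no interval that needs it is given.

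From these values log2(value + 1) was computed, a scale on which changes of weakly expressed genes look smaller. All 12 FPKM libraries entered 1 limma fit (limma 3.58.1, statmod 1.5.0, R 4.3.3) with 1 term for each group, robust moderation and a variance trend, and shBcat was subtracted from shHP1r. Tests were two-sided, with Benjamini-Hochberg adjustment over all genes tested and a threshold of 0.05. The code was tested on simulated data. List members were found by symbol. They cover 2-cell stage, Wnt, Tcf and destruction complex, junction, HP1 and H3K9 methylation, PRC1.6, germline, naive, core, formative, neuroectoderm, primitive streak, endoderm, trophoblast, imprinted, stress and ATF4, p53, interferon, fibroblast, glycolysis, pentose phosphate, cholesterol, E2F, ERK, Nodal and BMP, DNA methylation, mitochondrial and reference genes. The genes compared, the lists and the rule for named genes were chosen with earlier results of these data known, and the aminoacyl-tRNA synthetase lists after the values were seen.

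The rule named the targets, Axin2, Nanog, Pou5f1 and Otx2. It added up to 15 genes at each end of the called, non-overlapping differences with a higher mean of at least 2 FPKM, and up to 15 per opposite set by the smaller of the 2 shifts, without predicted, ribosomal or small RNA genes. The 4 smallest p in each list were also named. Other genes were chosen as examples after their values were seen. Some genes are not reported here. Positions and promoters are from RefSeq (GRCm38.p6). Alternatives were a 2-fold minimum, a pseudocount of 0.1, no filter or 5 FPKM, no trend or robust moderation, the 4 libraries alone, a replicate block, averaged pairs, median-of-ratios scaling, other side rules and each library left out.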

Additional observations from a re-analysis of the deposited data

Results flagged for a closer look

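The named genes, 141 in all, were looked at for libraries far from their group and for opposite shifts with shBcat in the 2 ES cell lines. Izumo2, lower with shHP1r, had 1 shGFP library at 1.20 FPKM, with the next at 1.50 and the highest at 1.6. Pmaip1 had 1 shGFP library at 21.6 FPKM, with the next at 20.8 and the lowest at 20.4. Among the 141 genes these 2 were flagged for such a gap. Chance gives it in about 1 of 20 groups of 6 independent values. The shGFP libraries fell into pairs, so that rate may not apply to them.

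In 16 genes every shBcat library lay on one side of shGFP in V6.5 cells and every one lay on the other side in QKO cells. Of 12245 genes tested in both lines, 683 (5.58%) did so. For the 16 genes adjusted p by limma in QKO cells ran from 0.051 to 0.23, so their QKO shifts did not pass the test. The difference between the lines was not tested, and the values are log2 shifts from shGFP in separately normalized tables. Below shGFP in V6.5 and above it in QKO cells were Zscan4f (0.17 in QKO, -3.22 in V6.5), Zscan4b (0.33 and -3.08), Tnfrsf22 (0.375 and -1.91), Usp17lc (0.19 and -1.43), Tcstv1 (0.36 and -1.42), Stra8 (0.38 and -2.33), Nkx1-2 (0.53 and -3.15) and Gapdh (0.24 and -0.25). Above shGFP in V6.5 and below it in QKO cells were Nupr1 (-1.27 in QKO, 0.86 in V6.5), Ddit3 (-1.01 and 1.15), Jdp2 (-0.49 and 1.1), Psat1 (-0.19 and 0.43), Sec16a (-0.17 and 0.55), Sars (-0.18 and 0.61), Csnk1a1 (-0.071 and 0.14) and Tagln (-2.49 and 1.82). Many named genes were chosen for lying outside shGFP with shBcat in V6.5 cells, which is part of this rule. The 16 genes therefore cannot be set against the 5.58%. The 2-cell genes, Stra8 and stress genes among them follow in part from that choice.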

How the results depend on the processing

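The shBcat and shHP1r libraries share replicate numbers, but deviations of same-numbered libraries did not correlate (r = 0.0025 over 14010 genes), so the numbers do not pair them. With the replicate number as a block, 1974 genes were higher and 1348 lower. That block fits exactly each shGFP library whose number no knockdown shares, which takes it out of the spread, so these counts do not measure pairing. With the 4 libraries alone and the block 185 were lower and 31 lay in the set high with shBcat. The 4 libraries alone without the block gave 932 higher and 387 lower. Of these, 709 and 186 were shared with the 1005 and 340 of the main fit, so many calls depended on the spread of the other libraries. In that fit the set high with shBcat held 66 genes. A 2-fold minimum gave 552 higher, 69 lower and 16 in that set, and 5 FPKM gave 467 higher and 262 in the set high with shHP1r. Pairs averaged gave 152, 3, 149 and, by limma, 0, with 52 of the last set at an unadjusted p under 0.05. Without the shE2F6 libraries and shGFP replicates 3 and 4 the counts were 1871, 1063, 836 and 396. Asking only that the shGFP mean lie between the knockdown means gave 866 and 256 genes on opposite sides, shifts of at least 0.5 gave 288 and 8, and a call for each knockdown against shGFP gave 219 and 12. Median-of-ratios scaling gave 507 and 122, but just 46 of the 100 genes high with shBcat were shared. Leaving out 1 library gave 508 to 1126 higher, 80 to 437 lower, 401 to 665 in the set high with shHP1r and 29 to 196 in the other. In the QKO comparison 334 genes were called, 570 with a pseudocount of 0.1, 14 with no filter, 138 with the block and 8 to 932 with 1 library left out. At 96 h of epiLC 738 were called, 341 with no filter and 274 to 454 with 1 library left out. Of the named genes, 14 kept their call in every setting run, among them Zscan4f, Rpia and Slc25a20. Trib3 and Wnt8a lost theirs in 11 and 14 settings. Counts in the other tables under these settings were chosen after seeing the data.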
